A study of Sus scrofa with 55 samples.

Results

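A set of 10 genes of the immediate early and growth arrest response, EGR1, FOS, JUN, ATF3, IER2, NR4A1, SOCS3, GADD45A, GADD45B and CDKN1A, was followed in single pig oocytes from antral follicles, the fluid-filled follicles in which an egg completes its growth. They were picked by symbol from the deposited raw count table, which lists 25880 genes, and all 10 were found there. All 10 also passed the filter on low counts, so no gene of the set is missing from the tests. The values were read as counts per 1000000 counts of the same oocyte (CPM), by follicle stage, by animal and against INHA and CYP11A1, a pair of genes of the steroid-making follicle cells, measured in the same libraries.

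Cytoplasmic RNA of 55 single oocytes was amplified with Smart-seq2, a full-length cDNA method, after the DNA of the same cell had been removed by centrifugation. Stage 1 had 11 oocytes, stage 2 had 12, stage 3 had 11, stage 4 had 11 and stage 5 had 10, the labels giving a stage number and no follicle size. They came from 4 wild-type pubertal Landrace Yorkshire gilts, young female pigs of 208 to 210 days. Gilt 201 gave 14 oocytes, gilt 205 gave 9, gilt 801 gave 12 and none of stage 5, and gilt 803 gave 20. All 4 animals had been injected with 5 IU of PMSG, a gonadotropin that stimulates follicle growth, 48 h before dissection, and the labels place the ovaries on ice in transit. No untreated animal and no oocyte fixed inside the ovary is part of the comparison, so PMSG, transport and cell handling are shared by every value given here.

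Immediate early genes are switched on within minutes of a growth factor, hormone or stress signal, without new protein being made first, and most of their transcripts are short-lived. Their products are largely transcription factors, and a slower arm of the same response holds feedback inhibitors and genes that halt the cell cycle. In the ovary several of them, NR4A1 and EGR1 among them, are known as gonadotropin-responsive genes of granulosa cells, and the same genes are also known to be induced when tissue is dissociated. A fully grown oocyte is held in meiotic arrest, and its transcription is largely silent at the end of growth. INHA encodes the alpha subunit of inhibin and CYP11A1 the enzyme that cleaves the cholesterol side chain, both typical of granulosa cells, and CYP11A1 also of theca cells.

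The libraries differed widely in what they held. Totals ran from 151104 to 38282850 counts with a median of 12139540, and 3 oocytes, all of gilt 803, had fewer than 1000000, so that 3 counts stood for between 0.0784 and 19.9 CPM. The oocyte markers ZP3, a glycoprotein of the egg coat, and GDF9, an oocyte growth factor, had counts in all 55 libraries. The 13 mitochondrially encoded protein genes took between 2.1% and 91.8% of the counts. Of a list of 24 granulosa and cumulus markers, 21 were in the table, and their summed level ran from 14.9 to 31053 CPM. In 13 libraries these markers held more counts than the oocyte markers, and 12 of those 13 came from gilt 803. They are called granulosa-rich below, and the contrast of gilt 803 and the correlations with other genes are given with and without them. INHA had no count in 3 oocytes and CYP11A1 none in 13. More cells of a follicular type in a tube and more RNA per such cell cannot be told apart in these data.

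The genes were unevenly present, with a few very high libraries and many near 0. An oocyte had counts for a median of 6 of the 10 genes, with a range of 1 to 10. In 15 oocytes at least 5 of the 10 reached 10 CPM, and in 19 oocytes none did. The summed level of the 10 genes ran from 0.118 to 5775 CPM with a median of 40.8 CPM. From stage 1 to stage 5 its medians were 40.8, 21.7, 37.2, 109.3 and 76.8 CPM. These medians lie far closer together than the oocytes within any stage do. The median mitochondrially encoded share was 51%, 76.1%, 73.9%, 9.05% and 73.3% in the same order, and its part in the order of the stage medians was not tested.

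**Figure D1:**
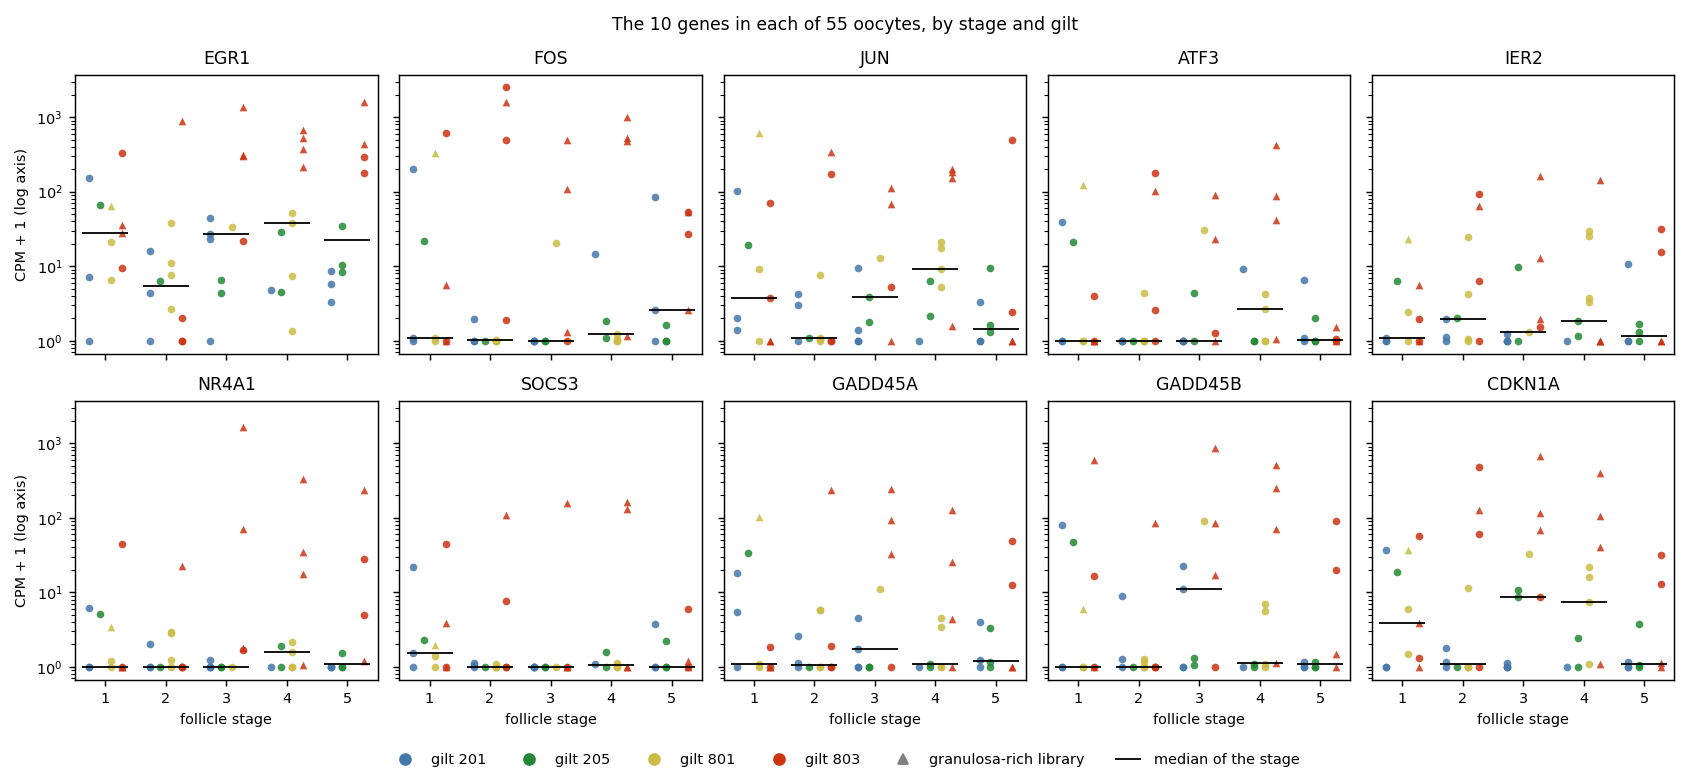
CPM + 1 on a log axis of each of the 10 genes in 55 oocytes, by follicle stage, coloured by gilt, with triangles for the 13 granulosa-rich libraries and a black bar at the median of the stage. In every panel points of gilt 803 lie in the upper range, while the stage medians stay below 40 CPM.

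Among the transcription factors, EGR1, a zinc finger factor of the growth factor response, was the most regularly present, with counts in 50 of 55 oocytes. From stage 1 to stage 5 its medians were 27.3, 4.39, 25.9, 37.4 and 21.8 CPM. The ranges were 0 to 331 CPM, 0 to 887, 0 to 1381, 0.368 to 672 and 2.28 to 1578 in that order. The ranges of all 5 stages overlapped. The 3 highest oocytes, all of gilt 803, held 46.6% of its summed CPM.

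NR4A1, an orphan nuclear receptor of the same early wave, had counts in 27 of 55 oocytes. Its stage medians were 0 at stages 1, 2 and 3, 0.574 CPM at stage 4 and 0.102 at stage 5, and its highest values were 44.0, 21.7, 1635, 329 and 233 CPM in that order. A single oocyte, the second of gilt 803 at stage 3, held 67.1% of its summed CPM.

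FOS, a partner in the AP-1 dimer, had counts in 33 of 55 oocytes. Its medians were 0.0949, 0.0164, 0, 0.235 and 1.60 CPM from the first stage to the last, against highest values of 619, 2515, 494, 1015 and 84 CPM. The highest of these came from the shallowest library of all, the fourth oocyte of gilt 803 at stage 2, with 151104 counts and counts for only 2 of the 10 genes.

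JUN, the other AP-1 partner, had counts in 40 oocytes, with medians of 2.81, 0.0950, 2.85, 8.09 and 0.454 CPM from stage 1 to stage 5. Its highest oocyte, at 618 CPM, was the third of gilt 801 at stage 1, the single granulosa-rich library outside gilt 803. ATF3, a stress-induced factor of the ATF and CREB family, had counts in 25 oocytes, a median of 0 at stages 1 to 3 and a highest value of 424 CPM at stage 4. At stage 5 no oocyte held more than 5.48 CPM of it. IER2, a short-lived nuclear protein of the early response, had counts in 34 oocytes, medians between 0.0972 and 0.984 CPM and highest values of 22.4, 91.6, 160, 140 and 30.5 CPM from stage 1 to stage 5.

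SOCS3 encodes a feedback inhibitor of JAK and STAT signalling. It was the least often found of the 10, with counts in 23 of 55 oocytes and at least 10 CPM in 6. At stage 3 it had counts in 1 of 11 oocytes, at 157 CPM, and at stage 5 its highest value was 4.88 CPM.

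The growth arrest genes had the same shape. GADD45A, a p53-responsive stress sensor, had counts in 30 oocytes, with medians between 0.0589 and 0.736 CPM and highest values of 101, 233, 242, 124 and 47.6 CPM from stage 1 to stage 5. GADD45B, its relative downstream of TGF-beta and NF-kappaB signals, had counts in 31 oocytes, and its medians were 0, 0, 9.93, 0.133 and 0.0764 CPM. CDKN1A, the cyclin-dependent kinase inhibitor p21, had counts in 37 oocytes, medians of 2.91, 0.0828, 7.74, 6.38 and 0.0882 CPM and highest values of 56.2, 481, 678, 395 and 30.4 CPM. The second oocyte of gilt 803 at stage 3 was the highest of all 55 for IER2, NR4A1, GADD45A, GADD45B and CDKN1A.

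Whether the genes differ between stages was tested on counts summed per gilt and stage, 19 sums in all, with the gilt as a block. A sum held 1 to 4 oocytes. No gene of the set passed in any stage comparison. Between stage 5 and stage 1, edgeR's quasi-likelihood test with Benjamini-Hochberg adjustment called 0 of 15637 genes (0% of the genes tested), with 840 at an unadjusted p under 0.05, and DESeq2 called 368. Of the 10 genes 9 had a negative difference, with a median of -2.64 on the log2 scale against -0.27 over all genes. The largest was GADD45B at -6.05 ± 1.95 (SE, unadjusted p = 0.00459, adjusted p = 0.904), followed by CDKN1A at -4.40 ± 1.63 (adjusted p = 0.904). GADD45B sums of stage 1 were 26.7 CPM in gilt 201, 46.7 in gilt 205, 0.851 in gilt 801 and 18.2 in gilt 803, and those of stage 5 were 0.0497 CPM in gilt 201, 0.0403 in gilt 205 and 45.6 in gilt 803. In gilts 201 and 205 the value was lower at stage 5, and in gilt 803 it was higher. The stage 1 sum of gilt 205 was 1 oocyte, and in gilt 201 only the first of 3 had counts of GADD45B. Granulosa markers summed to 5382 CPM in that oocyte of gilt 205 and to 6425 CPM in that of gilt 201. IER2 was the exception in sign, at 3.79 ± 2.15 (adjusted p = 0.930), and without gilt 201 its value was -0.36.

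DESeq2 on the same sums called GADD45B (-6.44, adjusted p = 0.00361) and CDKN1A (-4.66, adjusted p = 0.0373) lower at stage 5, where it called 2.35% of all genes. Without the granulosa-rich libraries the edgeR difference of GADD45B was 0.81, with the opposite sign, and with the INHA and CYP11A1 level of the sum added to the model it was -1.90.

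The steps between neighbouring stages gave no call for any gene of the set either. EdgeR called 0 of 15637 genes (0%) for stage 2 against stage 1, 0 (0%) for stage 3 against stage 2, 0 (0%) for stage 4 against stage 3, 0 (0%) for stage 5 against stage 4 and 0 (0%) in the F test over all stages. At an unadjusted p under 0.05 there were 1034, 728, 646, 466 and 840 genes, and DESeq2 called 411, 315, 265, 211 and 47. GADD45B changed sign at each of the first 3 steps, with -4.83 ± 1.60 from stage 1 to 2, 4.81 ± 1.68 from stage 2 to 3 and -4.99 ± 1.68 from stage 3 to 4, and adjusted p of 0.692, 0.995 and 0.998. DESeq2, which called 2.63%, 2.01% and 1.69% of all genes at these 3 steps, called GADD45B at each, with adjusted p of 0.0222, 0.0376 and 0.0256, and also JUN at the first, lower at stage 2 than at stage 1. INHA had its lowest stage median, 17.8 CPM, at stage 2, against 477 at stage 1 and 157 at stage 3. The part of follicular cell RNA in these steps was not tested beyond the model with that level as a term.

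With stage as a number, 2 of 15637 genes (0.0128%) were called by edgeR, with 900 at an unadjusted p under 0.05, and none was of the set. DESeq2 called 162 (1.04%), GADD45B among them. The slope was negative for 9 of the 10, from -1.35 ± 0.57 per stage for GADD45B (adjusted p = 0.815) to -0.10 ± 0.18 for EGR1 (adjusted p = 1.000), with IER2 at 0.51 ± 0.44. The slopes of the gilts could not be told apart either. The interaction of gilt and stage number gave 0 of 15637 genes (0%), with 585 at an unadjusted p under 0.05 and 5 by DESeq2, none of the set.

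In the edgeR fits gilt 803 differed from the other animals in these genes far more than the stages differed. In gilt 803 all 10 genes had a higher fitted level than the mean of the other 3 gilts, and 8 of them passed: EGR1, FOS, JUN, NR4A1, SOCS3, GADD45A, GADD45B and CDKN1A. Over all genes 732 of 15637 (4.68%) were called, 688 (4.4%) of them higher. The median difference of the 10 genes was 4.93 on the log2 scale, against 0.11 over all genes. This contrast sets 1 animal against 3, and earlier work on these files had already shown gilt 803 to stand apart, so it describes animals and not a condition.

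EGR1 sums in gilt 803 were 130, 607, 755, 440 and 511 CPM from stage 1 to stage 5, and those of the other gilts ran from 3.79 to 66.3 CPM. The ranges did not overlap, and the difference was 3.68 ± 0.51 (SE, adjusted p = 0.00013). NR4A1 sums in gilt 803 were 16.4, 14.8, 783, 79.0 and 48.9 CPM, against 0 to 4.09 CPM in the others. They too did not overlap, with a difference of 8.15 ± 1.24 (adjusted p = 0.000323).

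For the other 6 called genes the ranges overlapped in part. SOCS3 was at 16.2, 74.4, 74.7, 75.4 and 2.41 CPM in gilt 803 and at 0 to 7.07 CPM elsewhere (8.15 ± 1.36, adjusted p = 0.000761). FOS was at 231, 1229, 257, 458 and 28.2 CPM in gilt 803 and at 0 to 67.8 CPM elsewhere (6.29 ± 1.36, adjusted p = 0.00616). CDKN1A was at 21.2, 149, 350, 137 and 16.0 CPM against 0 to 31.5 CPM (4.65 ± 0.90, adjusted p = 0.00277). In each of these 3 genes the sum of gilt 803 was above that of every other gilt at all 5 stages, as for EGR1 and NR4A1. The share of all genes with that order, or with sums that do not overlap, was not counted.

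GADD45B was at 18.2, 58.1, 431, 191 and 45.6 CPM in gilt 803 and at 0 to 89.5 CPM elsewhere (6.10 ± 1.16, adjusted p = 0.00235). GADD45A was at 0.474, 160, 132, 40.8 and 24.3 CPM against 0 to 32.8 CPM (5.20 ± 1.11, adjusted p = 0.00561). JUN was at 27.4, 264, 56.3, 131 and 240 CPM against 0 to 109 CPM (4.06 ± 0.88, adjusted p = 0.00663). In these 3 genes another gilt was higher at stage 1, and gilt 803 was highest at the other 4 stages. IER2 (2.67 ± 1.12, adjusted p = 0.199) and ATF3 (3.38 ± 1.65, adjusted p = 0.291) did not pass.

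**Figure D2:**
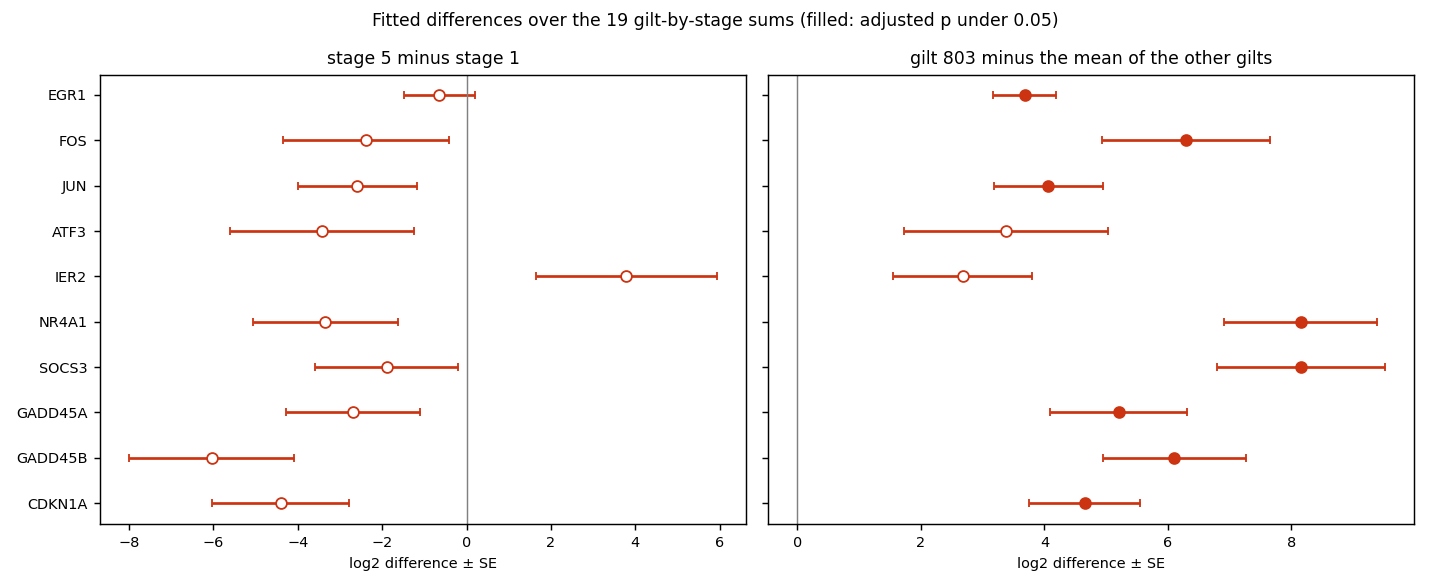
Fitted log2 differences ± SE of the 10 genes over the 19 gilt-by-stage sums, for stage 5 minus stage 1 (left) and gilt 803 minus the mean of the other gilts (right), with filled points where the adjusted p was under 0.05. No point is filled on the left and 8 of 10 are filled on the right.

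Of the 20 libraries of gilt 803, 12 were granulosa-rich, and without the 13 such libraries the contrast called 5 of 14706 genes (0.034%) and none of the set. The fitted differences were then 5.44 for FOS, 4.31 for CDKN1A, 3.97 for JUN, 3.89 for NR4A1, 2.60 for SOCS3 and 0.96 for EGR1, and negative for GADD45A at -1.60 and GADD45B at -1.48. In the 12 granulosa-rich oocytes of gilt 803 the median of EGR1 was 402 CPM, with a range of 27.3 to 1578. In its other 8 oocytes the median was 14.8 CPM (0 to 331), and in the 34 oocytes of the other gilts that were not granulosa-rich it was 6.97 CPM (0 to 153). GADD45B had medians of 76.7, 0 and 0.0250 CPM in these 3 classes. CDKN1A had medians of 53.5, 21.1 and 0.0998 CPM, and FOS of 80.6, 38.7 and 0 CPM. For CDKN1A and FOS the median of these 8 oocytes of gilt 803 was above that of the 34, and for GADD45B it was not. The classes rest on the ratio of granulosa to oocyte markers, and 1 of the 8, the fourth oocyte of stage 1, had 10450 CPM of granulosa markers, within the range of the granulosa-rich libraries.

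The 3 classes also differed in their other contents. Granulosa markers summed to between 4894 and 31050 CPM in the 12 granulosa-rich libraries of gilt 803, between 19.3 and 10450 in its other 8 and between 14.9 and 11290 in the 34 of the other gilts. The median mitochondrially encoded share was 6.68%, 36.8% and 83%. Since CPM divides by all counts, a library with a large mitochondrial share shows lower values of every nuclear gene. In CPM the summed level of the 10 genes had a median of 788.5 in gilt 803, 36.1 times that of the other gilts (21.8), with a ratio of 27.5 to 65.3 against each other gilt alone. With the mitochondrially encoded genes out of the total, gilt 803 was at 1259 and the other gilts at 106, a ratio of 11.9. The part of granulosa cell RNA in the higher values of gilt 803 was not tested beyond these comparisons.

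The other animals did not stand out for these genes. The same contrast for gilt 201 called 1 of 15637 genes (0.0064%), that for gilt 205 called 18 (0.115%) and that for gilt 801 called 4 (0.0256%), with none of the set among them. DESeq2 called 2.84%, 5.76% and 1.94% of all genes in these contrasts, among them, all lower, IER2 in gilt 201, FOS, GADD45A and GADD45B in gilt 205, and EGR1 and SOCS3 in gilt 801. Each of these contrasts is against a mean that includes gilt 803, where the set was high, which favours a lower sign. The F test among the 4 gilts called 339 genes (2.17%), including the same 8 genes of the set as the contrast of gilt 803. In gilt 205 all 10 genes had a negative difference, from -6.44 ± 1.68 for FOS (adjusted p = 0.145) to -0.65 ± 1.22 for IER2 (adjusted p = 0.923). Over all genes DESeq2 called 732 lower and 168 higher in gilt 205.

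Over all 55 oocytes, most of the genes were higher in libraries with more INHA and CYP11A1. Spearman's rho with the mean level of the pair over the 55 oocytes was 0.684 for GADD45B, 0.603 for EGR1, 0.512 for FOS, 0.452 for NR4A1, 0.369 for CDKN1A, 0.356 for SOCS3, 0.355 for ATF3, 0.318 for GADD45A, 0.221 for JUN and 0.0151 for IER2. The median of the 10 was 0.362, and 7.62% of all genes tested had a rho above that value. The median of the 10 was 0.563 within gilt 201, 0.457 within gilt 801 and 0.162 within gilt 803, against 0.357, 0.109 and -0.0978 over all genes. Within gilt 205 it was 0.0339, below the 0.117 of all genes, and 6 of the 10 were positive. Against ZP3 the rho over the 55 oocytes was negative for all 10 genes, with a median of -0.285 against 0.0483 over all genes. Without the granulosa-rich libraries that median was -0.0504 against 0.0789, and GADD45B was positive at 0.203. Against GDF9 the median was -0.169 with 1 of 10 positive (all genes 0.192). Without the granulosa-rich libraries it was 0.0879 with 8 of 10 positive (all genes 0.286). A setting added after the data were seen also took the mitochondrially encoded genes out of the total. Without the granulosa-rich libraries none of the 10 was then positive against ZP3 or GDF9. The medians were -0.288 for ZP3 (all genes -0.1385) and -0.275 for GDF9 (all genes -0.0513). These are descriptions over oocytes that share animals, stages and depth, and carry no p.

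**Figure D3:**
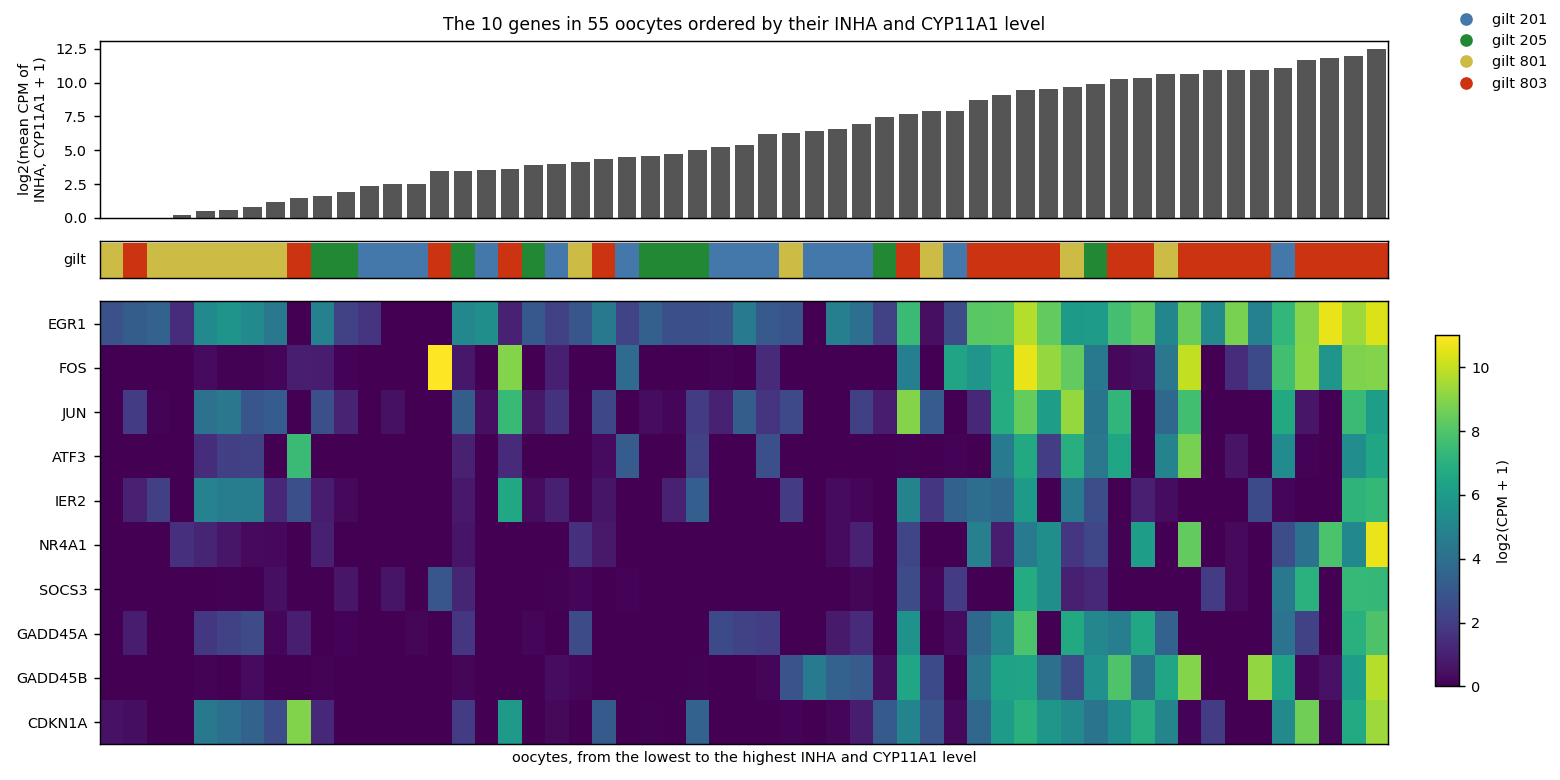
Log2(CPM + 1) of the 10 genes (rows) in 55 oocytes (columns) ordered by the INHA and CYP11A1 level shown as bars on top, with the gilt of each oocyte in the coloured strip. Bright cells gather at the right end, where most columns belong to gilt 803, and IER2 and JUN also have a block of brighter cells near the left end, in columns of gilt 801.

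GADD45B followed the pair most evenly. Its rho was 0.675 in the 42 oocytes that were not granulosa-rich, 0.654 after centring on gilt and stage means and 0.648 without gilt 803. Within gilts it was 0.640 in gilt 201 (14 oocytes), 0.426 in gilt 205 (9), 0.857 in gilt 801 (12) and 0.461 in gilt 803 (20). It reached 10 CPM in 15 oocytes, 11 of them of gilt 803.

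For EGR1, NR4A1 and FOS the rho was lower without gilt 803. EGR1 had a rho of 0.603 over all oocytes, 0.234 without the granulosa-rich libraries and 0.101 without gilt 803, while within gilt 803 it was 0.783. NR4A1 went from 0.452 to 0.176 without the granulosa-rich libraries and to 0.0107 without gilt 803, with 0.552 within gilt 803. FOS went from 0.512 to 0.279 and 0.261 in the same order, with 0.169 within gilt 803. ATF3 had 0.355, 0.219 and 0.331, with 0.0707 within gilt 803. Centred on gilt and stage means, the rho of EGR1 was 0.461, that of FOS 0.402 and that of NR4A1 0.372. Without the granulosa-rich libraries the median rho of the 10 genes was 0.248, and 10.1% of all genes lay above it.

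IER2 and JUN had the lowest rho with the pair over all 55 oocytes. IER2 had a rho of 0.0573 after centring on gilt and stage means and of -0.0434 without the granulosa-rich libraries, although it was 0.581 within gilt 201. JUN had 0.221 over all oocytes and 0.263 without the granulosa-rich libraries, but -0.0953 within gilt 803, so that without the granulosa-rich libraries it lay above EGR1 and NR4A1.

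**Figure D4:**
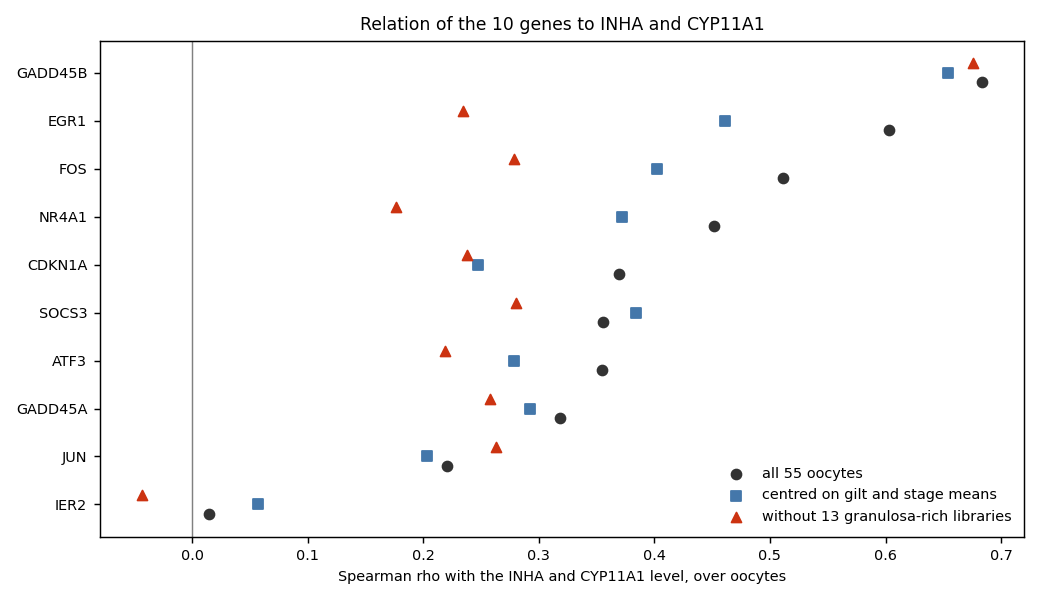
Spearman's rho of each gene with the INHA and CYP11A1 level over oocytes, for all 55 oocytes (circles), centred on gilt and stage means (squares) and without the 13 granulosa-rich libraries (triangles). GADD45B stays near 0.7 in all 3, EGR1, FOS and NR4A1 lie lower in the last, and IER2 stays near 0.

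The relation was also tested over the 19 sums, with the log2 level of the pair as a number beside stage and gilt. No gene of the set passed, and 2 of 15637 genes (0.0128%) were called, both higher (0.0128% for higher genes alone), 1 of them INHA, which is part of the pair itself. GADD45B came nearest, with 0.94 ± 0.22 log2 units per log2 unit of the pair (unadjusted p = 0.000191, adjusted p = 0.149), and it was called under 3 alternatives. These were edgeR without gilt 201 (1.11, adjusted p = 0.0344, with 0.0549% of all genes called), DESeq2 (0.94, adjusted p = 0.00105, 5.07%) and limma-voom (0.96, adjusted p = 0.0192, 0.914%). FOS was at 0.78 ± 0.41, ATF3 at 0.67 ± 0.45, CDKN1A at 0.47 ± 0.33, IER2 at 0.44 ± 0.38 and GADD45A at 0.42 ± 0.33. EGR1 (-0.03), JUN (-0.08), SOCS3 (-0.12) and NR4A1 (-0.26) had values below 0, each smaller than its SE. Without the gilt block 8 of the 10 genes were called, with 7.43% of all genes, the 8 being those other than ATF3 and IER2. In edgeR on all libraries EGR1, NR4A1, SOCS3 and JUN thus had a positive slope without the gilt term and none above 0 with it, but by limma-voom with the gilt term their slopes were positive and not called.

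**Figure D5:**
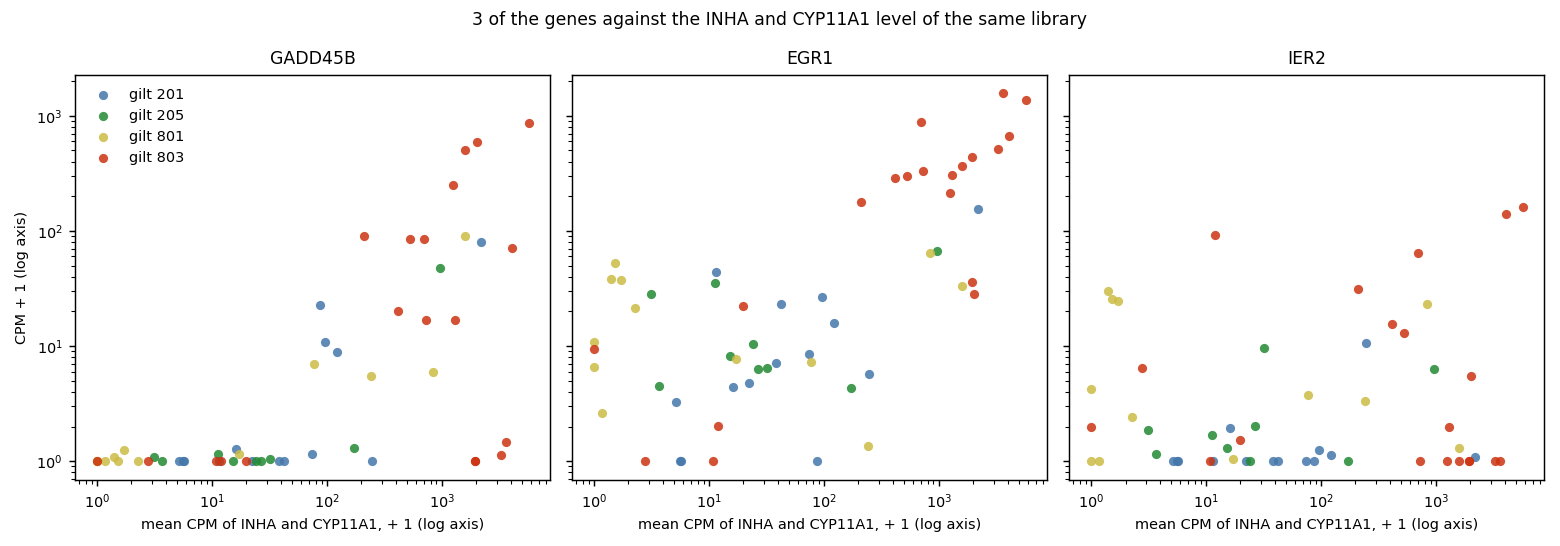
CPM + 1 of GADD45B, EGR1 and IER2 against the mean CPM of INHA and CYP11A1 + 1 in the same library, both on log axes, 1 point per oocyte, coloured by gilt. GADD45B climbs along the axis (rho 0.684), EGR1 climbs mainly through gilt 803 (rho 0.603) and IER2 shows no slope (rho 0.0151).

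Some oocytes carried part of these genes with next to no INHA or CYP11A1. Among them were 3 oocytes of gilt 801, the fourth of stage 2 and the second and the third of stage 4. They had 0.104 to 0.382 CPM of INHA and 0.669 to 1.31 CPM of CYP11A1. Their granulosa markers summed to between 157 and 168 CPM. The median was 130.9 CPM in the 34 oocytes of gilts 201, 205 and 801 that were not granulosa-rich. The median mitochondrially encoded share of those 34 was 83%, which lowers their CPM. The marker sums were not compared per nuclear-encoded count. In the 3 oocytes EGR1 was at 36.6, 51.5 and 37.4 CPM and IER2 at 23.4, 24.5 and 28.8. CDKN1A was at 10.4, 15.0 and 20.9 and JUN at 6.59, 20.0 and 16.6 CPM. FOS, SOCS3, NR4A1 and GADD45B stayed at or below 1.18 CPM in all 3. Their mitochondrially encoded shares were 4.68%, 4.73% and 3.62%, against 62.7% to 91.8% in 7 of the other gilt 801 oocytes. Per 1000000 nuclear-encoded counts IER2 was at 24.6, 25.7 and 29.9 in the 3 and at 0.526, 18.7 and 0 in the first 3 oocytes of stage 2. On that scale EGR1 was at 38.4, 54.1 and 38.8 in the 3 and at 68.4, 57.7 and 16.0 in those others, so for EGR1 the 3 were not higher. Beside the 3, the first oocyte of gilt 803 at stage 2 had 0.936 of INHA and 2.81 of CYP11A1 on that scale. It carried 499.7 of CDKN1A and 185.3 of ATF3. The second oocyte of gilt 801 at stage 2 had no count of INHA or CYP11A1, with the EGR1 and IER2 values given above. These oocytes were singled out after their values were seen.

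The 10 genes also varied together. All 45 pairs had a positive rho over the 55 oocytes, with a median of 0.476. The same median over pairs of all genes was not computed, so whether the set stands out here was not tested. EGR1 and NR4A1 were the closest, at 0.777, followed by FOS and ATF3 at 0.629 and ATF3 and CDKN1A at 0.622. IER2 and SOCS3 were the least alike, at 0.161. Centred on gilt and stage means, all 45 stayed positive with a median of 0.425, and EGR1 with NR4A1 was again the highest at 0.735. Without the granulosa-rich libraries the median was 0.385. On the scale of nuclear-encoded counts it was 0.391, and 0.281 where the granulosa-rich libraries were left out as well. Each gene was inversely related to the mitochondrially encoded share, from -0.687 for EGR1 to -0.322 for SOCS3, a term that all CPM values share.

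Among 6255 other genes with a symbol and a mean of at least 10 CPM, the closest 2 of each gene by rank over the 55 oocytes were read. None of them was on the list of granulosa markers. That list is short beside the candidates, so its absence here carries little weight. RPIA (0.801) and HNRNPM (0.792) came nearest to EGR1, BTG1 (0.794) and ITM2B (0.779) to FOS, and CNOT9 (0.853) and CDV3 (0.825) to JUN. DYNC2I2 (0.795) and SKP1 (0.784) came nearest to ATF3 and LIN7C (0.745) and WDR48 (0.692) to IER2. For NR4A1 they were TFPI2 (0.739) and PGR (0.733), the progesterone receptor, for GADD45B AMIGO2 (0.809) and PRR15 (0.742), and for CDKN1A PSMA4 (0.841), a proteasome subunit, and RNF19A (0.800). GADD45A had SEC61A1 (0.722) and LYRM2 (0.714), and SOCS3 had the weakest neighbours, SAMD4A (0.563) and CCSER2 (0.544).

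Other genes of the same pathways were read from lists that were also drawn up with earlier results known. Their counts in the contrast of gilt 803 with the granulosa-rich libraries included stand against 4.4% of all genes called higher and 0.281% called lower. Without those libraries that contrast called 5 of 14706 genes (0.034%), and the lists were not read. Of 40 further immediate early genes 33 could be tested, and 9 of the 33 were higher in gilt 803, with a median difference of 1.73 against 0.11 over all genes. These were ZFP36L2 (2.72 ± 0.44, adjusted p = 0.000501) and ZFP36, which encode proteins that speed the decay of mRNA, the growth regulator MYC (7.09 ± 1.24, adjusted p = 0.00118), the phosphatase DUSP1, the AP-1 factor FOSL2, MAFF, CEBPD, the matrix protein gene CCN2 and the kinase gene SGK1. Medians over the oocytes of gilt 803 were 545 CPM for ZFP36L2, 298 for CCN2, 61.4 for ZFP36, 23.4 for FOSL2 and 16.2 for DUSP1. They were 1.89 CPM for CEBPD, 0.306 for MYC, 0.0509 for MAFF and 0 for SGK1. Between stage 5 and stage 1 none of the 33 passed, 25 were negative and the median difference was -0.99.

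Of 29 tested p53 and growth arrest genes 1, PLK2, was higher in gilt 803 (4.33 ± 1.08, adjusted p = 0.0169), a share near the 4.4% of all genes, with a median of 0.32. The median of PLK2 over the oocytes of gilt 803 was 0.134 CPM. CCNG1, BTG1 and FDXR, the most abundant of that list, had differences of 1.59, 2.62 and 1.85 that did not pass. Of 20 genes of the integrated and unfolded protein stress responses 4 were higher: DDIT4, an mTORC1 inhibitor (4.40 ± 0.70, adjusted p = 0.000418), PPP1R15A, EIF2AK3 and VEGFA. Their medians over the oocytes of gilt 803 were 362.5, 3.22, 0.495 and 0.414 CPM in that order. HSPA5, the chaperone of the endoplasmic reticulum, had a difference of -0.01 ± 0.57.

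Of 14 heat shock genes 2 were higher, HSPA8 (2.13 ± 0.44, adjusted p = 0.00422) and HSP90AB1, and of 19 JAK, STAT and SOCS genes 1, STAT3 (1.93 ± 0.53, adjusted p = 0.0339), again near the 4.4% of all genes. None of 28 upstream kinases and transcription factors passed in either direction. In the same contrast 8 of 20 granulosa and cumulus markers were higher, among them CYP11A1 (5.80 ± 1.01), GJA1 and HAS2, while INHA was at 2.98 ± 0.88 (adjusted p = 0.0501). Of 16 blood, immune and endothelial markers 4 were higher and of 14 theca and stroma markers 2. Of 19 oocyte markers 5 were lower, with ZP3 at -4.30 ± 0.97 (adjusted p = 0.00859), and of 13 mitochondrially encoded genes 6 were lower. In the stage 5 and stage 1 comparison no gene of any of these lists was called.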

How the data were processed

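The authors deposited raw read counts, with a row per Ensembl gene and a column per oocyte. StringTie 1.2.2, HISAT2 2.1.0, Trim Galore 0.4.3 and featureCounts are named, per the submitters' processing notes, without roles. The genome build, the annotation and any use of strand are not stated there, so reads of overlapping or antisense genes cannot be separated and no positions are stated. Symbols were matched by gene ID (14857 of 25880 IDs). A second deposited table, named TPM by the authors, is of another, unstated scale, since its columns sum to between 40073 and 2990162. It served as an alternative for the 8 genes it holds (FOS and CDKN1A are outside the rows read).

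Counts were summed per gilt and stage (19 sums) and fitted with edgeR 4.0.16 in R 4.3.3 (TMM, filterByExpr by stage, quasi-likelihood test), with stage and gilt as terms. Two-sided p-values were adjusted over all 15637 genes tested, and an adjusted p under 0.05 was called. The common biological coefficient of variation was 1.24. Gilt is a block because the labels name the animals, and deviations of sums from the stage means had a mean correlation of 0.0141, 0.123, 0.137 and 0.124 within gilts 201, 205, 801 and 803, against -0.0924 between gilts. In the stage comparisons the animal is the replicate, and those p-values rest on 4 animals. In the contrasts and the F test of gilts, p-values rest on the scatter of sums left after stage and gilt. They do not measure spread between animals. Oocyte values are CPM, and rank correlations used log2(CPM + 1). The libraries carry no molecular identifiers, so PCR copies count as reads, and limits from counts cover counting error only. The scripts were tested on simulated data.

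All 10 genes are named in every comparison, from each further list the 3 most abundant genes or those called, and for each gene the 2 nearest by rank correlation. The genes, lists and alternatives were chosen with earlier results of these data known. DESeq2 1.42.0 and limma 3.58.1 were alternatives. No 2 libraries were identical, and the highest correlation between any pair was 0.984.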

Additional observations from a re-analysis of the deposited data

Results flagged for a closer look

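In 8 of 50 groups checked, the highest value lay apart from the rest, by its gap to the next value relative to the range on the log2(CPM + 1) scale. For normally distributed values chance gives about 1 in 20 such groups. These groups hold many zeros and share libraries, so that rate is only a rough guide here. In 6 of the 8 the value apart was the sum of gilt 803 among the 4 gilts of a stage. For FOS this was stage 2, with 1229 CPM in gilt 803 and 0 to 0.397 CPM in the other gilts. For NR4A1 it was stage 3, with 783 CPM against 0 to 0.0415 CPM, and stage 4, with 79.0 CPM against 0 to 0.709 CPM. For SOCS3 it was stage 2 (74.4 CPM against 0 to 0.0468), stage 3 (74.7 CPM, with no count in the other gilts) and stage 4 (75.4 CPM against 0.0249 to 0.290).

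In the remaining 2 groups a single oocyte stood apart among the 10 of stage 5. For JUN it was the fourth oocyte of gilt 803, with 495.8 CPM where the other 9 had 0 to 8.57 CPM. For ATF3 it was the first oocyte of gilt 201, with 5.48 CPM where the others had 0 to 0.994 CPM.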

How the results depend on the processing

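The number of genes of the set that were called moved with the tool and the filter. DESeq2 called 2 for stage 5 against stage 1, 2 for stage 2 against stage 1, 1 for stage 3 against stage 2, 1 for stage 4 against stage 3, 1 for the trend and 1 for the slope on INHA and CYP11A1, where edgeR called 0 in each and DESeq2 called 2.35%, 2.63%, 2.01%, 1.69%, 1.04% and 5.07% of all genes. Without the filter on low counts edgeR called 1 for stage 5 against stage 1, 2 for stage 2 against stage 1, 3 over all stages and 1 for the slope (0.0998%, 0.482%, 0.938% and 0.191% of all genes). Limma-voom called 5 in the contrast of gilt 803, 3 among the gilts and 1 for the slope (5.33%, 3.43% and 0.914% of all genes). Without the granulosa-rich libraries 0 were called in the contrast of gilt 803 and 0 among the gilts, where 8 oocytes of gilt 803 were left. For the slope, 8 were called without the replicate block (7.43% of all genes) and 5 with each oocyte as a library (12.4%), and without each gilt in turn the count was 0 to 1. The block changed no other count of calls for these genes. The cause of these moves was not tested.

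Several differences that were not called changed sign. For stage 5 against stage 1 these were EGR1 (0.41 by limma-voom, 1.01 without the block, 0.64 per oocyte and -1.31 to 0.41 without each gilt), JUN (0.34 by limma-voom, 0.14 without the block), NR4A1 (1.23 without the block), GADD45A (0.50 by limma-voom, 1.22 without the granulosa-rich libraries), GADD45B (0.81 without them) and IER2 (-0.36 to 5.42 without each gilt). In the contrast of gilt 803, GADD45A went to -1.60 and GADD45B to -1.48 without the granulosa-rich libraries. The slopes of EGR1, JUN, NR4A1 and SOCS3 were positive by limma-voom (0.14, 0.47, 0.0919 and 0.28), without the block (0.49, 0.55, 0.90 and 1.16) and per oocyte (0.32, 0.38, 0.88 and 0.75). Without the granulosa-rich libraries they were 0.0701, 0.21 and 0.0001 for the first 3. Without each gilt they ran from -0.20 to 0.13, -0.34 to 0.45, -0.70 to 0.45 and -0.74 to 0.69. The median rho among the genes was 0.281 on nuclear-encoded counts without the granulosa-rich libraries and 0.350 on those counts after centring, both added after seeing the data. The ratio of gilt 803 to the other gilts was 11.9 on nuclear-encoded counts and 10.3 in the table named TPM, against 36.1. Depth limits a 0 to under 0.0784 CPM in the deepest oocyte and 19.9 CPM in the shallowest.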

Other observations

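The second deposited table is named for a unit per gene length, but its columns do not sum to a constant and its scale is unstated, so the order of genes within an oocyte holds only if the values are per length. Among the 8 of the 10 genes it holds, EGR1 was the highest in 31 of 55 oocytes, IER2 in 9, JUN in 4, GADD45B in 4, ATF3 in 3, SOCS3 in 2, NR4A1 in 1 and GADD45A in 1. Ranks of the oocytes in this table and in CPM had a rho between 0.927 for EGR1 and 0.995 for GADD45A.

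A few libraries held these genes together with RNA of other kinds. The third oocyte of gilt 803 at stage 2 had 16240 CPM of blood, immune and endothelial markers, the highest of all 55, and carried 491 CPM of FOS, 170 of JUN and 91.6 of IER2 with 1.04 of EGR1. The first oocyte of gilt 803 at stage 2 had 481 CPM of CDKN1A and 178 of ATF3 with no count of EGR1, JUN, NR4A1, SOCS3 or GADD45B, at 1109755 counts and a mitochondrially encoded share of 3.71%. The first oocyte of gilt 803 at stage 5 had 437 CPM of EGR1 and 3585 of INHA but no count of JUN, IER2, GADD45A, GADD45B or CDKN1A.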
